A study of Homo sapiens with 9 samples.

Results

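The genes described here move and duplicate chromosomes: the kinesins, the centromere proteins with CENP symbols, the MCM and GINS components of the replication machinery, and, by rule, condensin and origin recognition genes. Members were the genes named in the deposited table whose symbol starts with KIF, CENP, NCAP, MCM, GINS or ORC in the numbered or lettered form of those families. There were 72 such genes of 14884 named, in 76 rows of the table, and for a gene with several rows the brightest row was used. They comprised 40 genes with KIF symbols, 17 with CENP, 11 with MCM and 4 with GINS. No condensin gene of the NCAP families and no ORC gene is among the named rows, so 0 members came from either, and they are not analysed here. All 39 protein-coding genes with numbered KIF symbols, all 10 with numbered MCM symbols and all 4 GINS genes of the RefSeq table were named, but 16 of 24 with CENP symbols. CENPB, CENPE, CENPF and CENPS are among those not named.

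The cells were THP-1, a human monocytic leukaemia line, brought to a macrophage-like state called M0 with the phorbol ester PMA, which all 3 groups received. They were then exposed for 16 h to 100 nM osimertinib, a covalent inhibitor of the epidermal growth factor receptor, to 0.5 µM cisplatin, a platinum compound whose adducts link DNA bases, or to vehicle. Each group had 3 replicates, which the labels call biological and independent, and RNA of each was read on its own Affymetrix Human Gene 2.0 ST array, which makes 9 arrays. THP-1 is a single tumour line in culture, so the replicates are cultures of 1 genotype.

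Values are levels on a log2-like scale, from 0.65 to 13.17 over all arrays, and a difference of 1 is a doubling. Genes with a mean level at or above 4.28, the median of all named genes, were tested with a linear model in limma, and a gene was called when its p-value, adjusted by Benjamini-Hochberg over the 7442 tested genes, was under 0.05. Of the 72 members, 53 were tested, at mean levels of 4.36 to 9.54, and 19 lay below the limit, at 2.06 to 4.23. Of 16 markers of macrophages and monocytes, 9 were named and 5 were above the limit, among them CD68 at 9.71, CSF1R at 8.83 and TYROBP at 7.58. CD163 at 2.43, LYZ at 3.25, MARCO at 3.19 and CSF3R at 3.69 were below it. By group, CD68 averaged 9.74 with osimertinib, 9.95 with cisplatin and 9.44 with vehicle, and CSF1R averaged 8.86 with osimertinib, 9.07 with cisplatin and 8.57 with vehicle. The mean level of the 9 named markers was 5.53 to 5.67 on the osimertinib arrays, 5.61 to 5.74 on the cisplatin arrays and 5.42 to 5.48 on the vehicle arrays, and the part of this in the results was not tested. CD2 of T cells at 3.07 and DCN of fibroblasts at 1.55 were also below it, while KRT18, a keratin of simple epithelia, was at 7.49 and KRT8 at 4.66. On the second principal component of the tested genes cisplatin replicate 1 (15.5) and osimertinib replicate 1 (-11.2) lay furthest out. Arrays have no read depth, and their number limits the precision. The samples are bulk RNA, so fewer cycling cells and less RNA per cycling cell cannot be told apart.

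Before a cell divides, the origin recognition complex loads the ring-shaped MCM2 to MCM7 helicase onto DNA, and the helicase is activated when CDC45 and the GINS complex join it. In mitosis, a kinetochore is built on centromeric chromatin marked by the histone variant CENPA, through the inner network of CENP proteins, and kinesins slide, depolymerise or walk along spindle microtubules. Other kinesins carry vesicles and organelles in cells that do not divide. PMA drives THP-1 cells out of the division cycle, so transcripts of dividing cells are usually low in them. In these data 12 of 13 mitotic kinesins had a mean level at or above the limit, the median of all named genes. So had 14 of 17 genes with CENP symbols, 10 of 11 with MCM symbols and 3 of 4 GINS genes.

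Relative to vehicle, many of the mitotic kinesin, centromere and MCM genes fell with both drugs, and 0 of 14 tested kinesins of the other, mostly cargo-carrying group fell. Fell and rose here mean called lower and called higher. With osimertinib 22 of 53 tested members fell and 3 rose, against a background of 13.7% of all tested genes called lower and 16.9% called higher. With cisplatin 20 fell and 3 rose, against 14.5% lower and 16.5% higher. With quantile normalization added, the shares of all tested genes became 12.5% lower and 26.9% higher with osimertinib and 13.1% lower and 26.4% higher with cisplatin, with 21 and 19 members lower and 3 and 3 higher. Called in either direction were 25 members with osimertinib (30.6% of all tested genes) and 23 with cisplatin (31.0%). The median log2 difference of the tested members was -0.28 with osimertinib and -0.20 with cisplatin, and that of all tested genes 0.04 and 0.03. When all 72 members and all 14884 named genes were tested without the level limit, 20 members fell and 2 rose with osimertinib, against 6.99% of genes lower and 7.77% higher, and 18 fell and 3 rose with cisplatin, against 7.28% and 7.41%. With osimertinib the arrays lay wholly below the vehicle arrays for 26 tested members (19.5% of all tested genes) and wholly above for 3 (24.6%). With cisplatin the counts were 26 (19.8%) and 3 (22.5%). Both comparisons use the same 3 vehicle arrays, so they are not independent of each other.

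**Figure D1:**
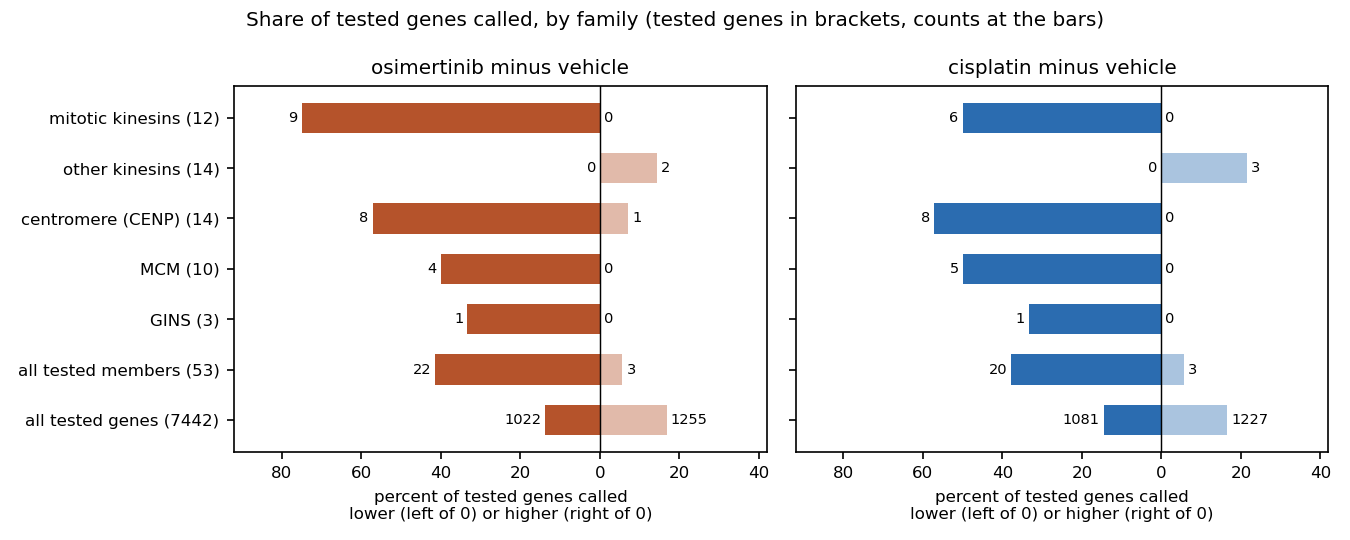
Horizontal bars give the percent of tested genes called lower (left of 0) and higher (right of 0) with osimertinib (left panel) and cisplatin (right panel) against vehicle, by family, with the number called beside each bar. With osimertinib 9 of 12 mitotic kinesins fell, and with either drug 0 of 14 other kinesins fell.

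Of 12 tested mitotic kinesins, 9 fell with osimertinib and 6 with cisplatin, and 0 rose with either. Of 14 other tested kinesins, 0 fell with either drug. In that group 2 rose with osimertinib (14.3%) and 3 with cisplatin (21.4%), shares near the 16.9% and 16.5% of all tested genes. Of 14 tested genes with CENP symbols, 8 fell with each drug, and 1 rose with osimertinib. Of 10 tested genes with MCM symbols, 4 fell with osimertinib and 5 with cisplatin, and of 3 tested GINS genes 1 fell with each. The median log2 differences were -0.38 with osimertinib and -0.33 with cisplatin for mitotic kinesins, 0.01 and 0.08 for other kinesins, -0.41 and -0.38 for CENP genes, and -0.17 and -0.35 for MCM genes. The difference between families was not tested.

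Among the motors of the spindle, KIF15, a plus-end motor that helps keep spindle poles apart, showed the largest fall. Its log2 levels were 5.46, 5.25 and 5.19 with osimertinib, 5.55, 5.49 and 5.54 with cisplatin, and 6.24, 6.27 and 6.26 with vehicle. All 6 drug-treated arrays lay below all vehicle arrays, and the osimertinib arrays also lay below the cisplatin arrays. The log2 difference was -0.96 with osimertinib (SE 0.09, adjusted p = 8.11e-06) and -0.73 with cisplatin (SE 0.09, adjusted p = 7.14e-05), which is 1.94-fold lower with osimertinib and 1.66-fold lower with cisplatin. KIF2C, the centromeric microtubule depolymerase also known as MCAK, had 6.07, 6.05 and 5.79 with osimertinib, 6.08, 6.21 and 6.02 with cisplatin, and 6.54, 6.66 and 6.73 with vehicle. The treated arrays did not overlap the vehicle arrays, and the difference was -0.67 with osimertinib (SE 0.10, adjusted p = 0.000206) and -0.54 with cisplatin (SE 0.10, adjusted p = 0.00111). KIF14, a motor of the midbody in cytokinesis, had 4.92, 5.16 and 4.79 with osimertinib, 4.94, 5.23 and 5.29 with cisplatin, and 5.57, 5.52 and 5.78 with vehicle, again without overlap, with a difference of -0.66 with osimertinib (SE 0.13, adjusted p = 0.00156) and -0.47 with cisplatin (SE 0.13, adjusted p = 0.0147). KIF20B, another motor of late mitosis, had 5.77, 5.77 and 5.68 with osimertinib, 5.77, 5.54 and 5.46 with cisplatin, and 6.24, 5.95 and 6.38 with vehicle. Its highest treated value, 5.77, lay below its lowest vehicle value, 5.95, and the difference was -0.45 with osimertinib (SE 0.12, adjusted p = 0.0108) and -0.60 with cisplatin (SE 0.12, adjusted p = 0.00183). Osimertinib replicates 1 and 2 and cisplatin replicate 1 of KIF20B held the same value, so its spread with osimertinib may be understated.

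A further 5 mitotic kinesins fell. KIF11, the Eg5 motor that pushes spindle poles apart, fell by 0.51 with osimertinib and 0.40 with cisplatin on the log2 scale (adjusted p = 0.00103 and 0.00529). KIF18A, which dampens chromosome oscillations at the metaphase plate, fell by 0.52 with osimertinib and 0.39 with cisplatin. KIF18B, a motor of astral microtubule plus ends, KIF22, a chromokinesin that pushes chromosome arms, and KIF23, the motor of centralspindlin, fell with osimertinib, by 0.31, 0.31 and 0.29. With cisplatin these 3 stood at -0.20, -0.16 and -0.19 and were not called. The remaining 3 tested mitotic kinesins were called with neither drug. KIF20A, needed at the central spindle, differed by -0.31 with osimertinib and 0.09 with cisplatin, the chromokinesin KIF4A by -0.25 with osimertinib and -0.26 with cisplatin, and KIF4B by 0.03 with osimertinib and 0.21 with cisplatin. KIF4B is an intronless near-copy of KIF4A, so their probes may not part them, and 5 arrays of KIF4B shared the value 5.56. KIF2B was below the level limit, at a mean of 3.85.

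Several of the smaller falls rested on few arrays. With cisplatin, KIF14 was not called without vehicle replicate 3 (adjusted p = 0.0697) or cisplatin replicate 1 (0.0575), and KIF18A was not called without vehicle replicate 2 or 3 or cisplatin replicate 1 or 2 (0.0665 to 0.0962), nor without the level limit (0.0536). With osimertinib, KIF20B was not called without vehicle replicate 3 (0.0565), KIF23 without vehicle replicate 1 or 3 or osimertinib replicate 2 or 3 (0.0533 to 0.129), KIF18B without vehicle replicate 1 or 3 or osimertinib replicate 1 or 3 (0.0549 to 0.108), and KIF22 without vehicle replicate 2 or 3 or osimertinib replicate 1 or 3 (0.0543 to 0.148). KIF22 also lost its call with the replicate number as a block (0.0535), with median centring (0.109) and without the level limit (0.0641). KIF18B lost it with median centring (0.0818) and with quantile normalization on top (0.0666), and KIF23 with median centring (0.111).

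**Figure D2:**
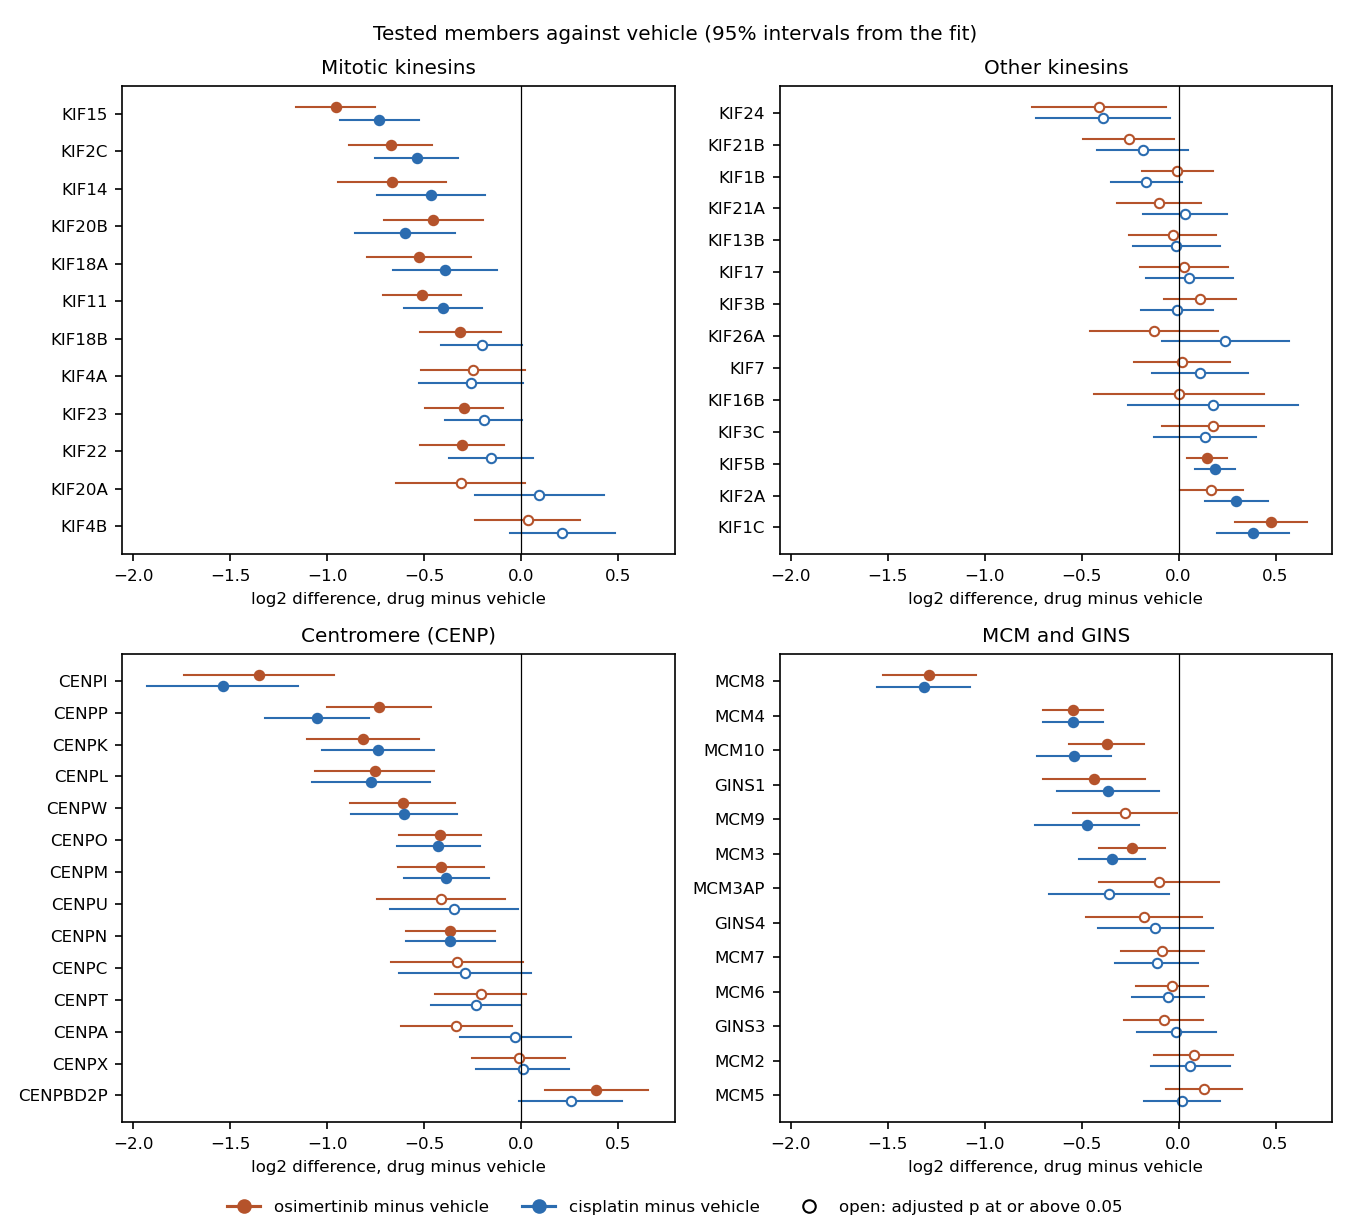
Points give the log2 difference from vehicle of each of the 53 tested members for osimertinib (red-brown) and cisplatin (blue), with lines for the 95% intervals from the fit; filled points were called, open points were not. Most mitotic kinesins, CENP, MCM and GINS genes lie left of 0, down to -1.54 for CENPI, and the other kinesins lie around 0, up to 0.48 for KIF1C.

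The promoters of the mitotic kinesins shared a sequence feature that the choice of members did not use. The RefSeq table of promoter windows (build GRCh38.p14, from 250 bases before to 50 bases after a start site) held 59 of the 72 members and 45 of the 53 tested. In 54 of the 59 that site is the gene start of the RefSeq gene table. In CENPI, KIF24, KIF5C, KIF7 and MCM3AP it is another position, and distances are counted from the window's own start site. Both strands were searched for the cell cycle genes homology region, CHR, as TTTGAA or TTCGAA, an element known from genes of late cell cycle stages; for E2F sites as the word TTCCCGC, the word TTGGCGC, the word TTCGCGC or the word TTGCCGC; and for the NF-Y box CCAAT. Matches were counted separately where words overlap. A CHR word stood in 10 of 12 promoters of tested mitotic kinesins (83.3%), in 2 of 12 of other tested kinesins (16.7%), in 5 of 11 CENP genes (45.5%), in 1 of 8 MCM genes (12.5%), and in 11.6% of promoters of all tested protein-coding genes. In the 10 mitotic kinesin promoters every CHR word began between 55 bases before and 30 bases after the start. A CHR word within 60 bases of the start, a distance chosen after seeing these positions, stood in 3.8% of promoters of tested protein-coding genes. CCAAT stood in 10 of 12 mitotic kinesins (83.3%), 7 of 8 MCM genes (87.5%), 7 of 11 CENP genes (63.6%) and 4 of 12 other kinesins (33.3%). It also stood in 1 of 2 GINS genes and in 36.9% of tested protein-coding genes. E2F words stood in 5 of 8 MCM genes and both tested GINS genes with a window. They stood in 3 of 12 mitotic kinesins, 4 of 12 other kinesins and 3 of 11 CENP genes, and in 20.7% of tested protein-coding genes. Over all 27305 promoters in the table the shares were 16.6% for CHR, 13.1% for E2F and 35.7% for CCAAT.

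A CHR word stood in 11 of the 20 promoters of members called lower with either drug (55.0%) and in 7 of the 25 of tested members not called lower (28%). Of the 18 tested members with a CHR word, 10 are mitotic kinesins, so family and fall cannot be told apart in these shares. Outside that family CENPN, CENPO and CENPW hold a CHR word and were called lower. MCM6, CENPA, CENPC, KIF24 and KIF5B hold one and were not called lower. E2F words stood in 7 of the 20 promoters of members called lower and in 10 of the 25 of those not called lower. That split ran the other way from that of CHR. CCAAT stood in 15 of the 20 and in 14 of the 25. Members that fell and members that were not called are found both with and without these words. KIF15 holds a CHR and an E2F word, KIF11 a CHR word and a CCAAT box, and KIF20B a pair of CHR words just after the start, and all 3 fell with both drugs. KIF4A, KIF4B and, among centromere genes, CENPA and CENPC also hold a CHR word and were not called, while KIF2C, CENPI and CENPP hold none of the searched words and fell with both. MCM6 with 4 E2F words, MCM7 with 3 and MCM2 with 2 were not called, and MCM3 with 3 and MCM8 with 2 fell. A match describes letters in a window and is not evidence of binding. The windows printed here, from RefSeq and chosen after the values were seen, set mitotic kinesins, a centromere gene and MCM genes that fell beside a cargo kinesin that rose. Capitals mark the searched words. They lie at chr10:92592880-92593179 (+ strand) for KIF11, chr3:44761544-44761843 (+ strand) for KIF15, chr10:89701340-89701639 (+ strand) for KIF20B, chr6:126339865-126340164 (+ strand) for CENPW, chr6:52284693-52284992 (- strand) for MCM3, chr20:5950402-5950701 (+ strand) for MCM8 and chr10:32056376-32056675 (- strand) for KIF5B, each written 5′ to 3′ on the strand of its gene.
KIF11: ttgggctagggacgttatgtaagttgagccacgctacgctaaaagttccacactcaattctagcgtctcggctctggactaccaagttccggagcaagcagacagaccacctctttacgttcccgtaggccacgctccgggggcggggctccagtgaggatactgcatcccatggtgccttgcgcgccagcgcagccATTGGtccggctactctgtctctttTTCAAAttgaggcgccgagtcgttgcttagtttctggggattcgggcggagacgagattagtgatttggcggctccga
KIF15: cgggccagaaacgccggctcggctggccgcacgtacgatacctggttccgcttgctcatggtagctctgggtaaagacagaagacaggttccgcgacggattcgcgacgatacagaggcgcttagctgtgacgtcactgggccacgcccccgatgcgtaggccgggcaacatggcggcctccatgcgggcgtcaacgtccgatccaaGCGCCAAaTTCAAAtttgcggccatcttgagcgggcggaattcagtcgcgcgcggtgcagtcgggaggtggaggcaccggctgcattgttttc
KIF20B: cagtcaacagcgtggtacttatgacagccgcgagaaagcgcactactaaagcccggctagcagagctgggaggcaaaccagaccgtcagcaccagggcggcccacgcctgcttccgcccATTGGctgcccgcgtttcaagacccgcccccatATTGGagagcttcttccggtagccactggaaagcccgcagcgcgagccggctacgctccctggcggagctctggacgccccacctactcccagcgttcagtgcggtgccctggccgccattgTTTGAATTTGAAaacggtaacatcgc
CENPW: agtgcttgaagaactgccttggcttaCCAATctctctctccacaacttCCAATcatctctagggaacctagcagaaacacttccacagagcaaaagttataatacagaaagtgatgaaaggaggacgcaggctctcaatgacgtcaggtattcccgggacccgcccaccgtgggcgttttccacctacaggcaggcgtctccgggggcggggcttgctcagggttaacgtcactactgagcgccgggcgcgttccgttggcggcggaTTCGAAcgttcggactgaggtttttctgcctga
MCM3: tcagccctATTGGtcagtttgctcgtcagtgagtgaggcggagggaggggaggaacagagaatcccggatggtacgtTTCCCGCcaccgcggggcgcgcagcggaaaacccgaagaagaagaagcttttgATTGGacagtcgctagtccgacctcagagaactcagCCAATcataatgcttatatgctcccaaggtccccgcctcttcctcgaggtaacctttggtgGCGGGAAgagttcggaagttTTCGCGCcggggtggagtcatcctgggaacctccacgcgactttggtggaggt
MCM8: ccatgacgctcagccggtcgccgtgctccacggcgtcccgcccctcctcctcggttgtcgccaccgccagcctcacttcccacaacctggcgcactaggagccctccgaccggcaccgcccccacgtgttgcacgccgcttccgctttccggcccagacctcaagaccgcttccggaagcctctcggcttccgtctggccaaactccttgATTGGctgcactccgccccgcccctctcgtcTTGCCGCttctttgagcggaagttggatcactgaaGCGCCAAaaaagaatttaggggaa
KIF5B: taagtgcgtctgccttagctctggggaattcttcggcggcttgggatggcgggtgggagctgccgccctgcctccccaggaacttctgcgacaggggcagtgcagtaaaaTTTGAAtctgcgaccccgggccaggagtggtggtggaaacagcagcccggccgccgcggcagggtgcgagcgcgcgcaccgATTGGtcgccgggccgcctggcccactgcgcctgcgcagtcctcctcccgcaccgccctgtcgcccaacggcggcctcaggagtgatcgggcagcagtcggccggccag

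In KIF15 the E2F and CHR words begin 43 and 35 bases before the start. In KIF5B, which rose, the CHR word begins 140 bases before the start, further out than in any tested mitotic kinesin. KIF24, the other tested kinesin outside the mitotic group with a CHR word, has it 1 base after its window's start site and was not called.

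The kinesins that rose were KIF1C and KIF5B with both drugs and KIF2A with cisplatin. KIF1C, a fast vesicle transporter, had log2 levels of 6.71, 6.61 and 6.78 with osimertinib, 6.52, 6.70 and 6.61 with cisplatin, and 6.16, 6.33 and 6.18 with vehicle. Every treated array lay above every vehicle array, with a difference of 0.48 with osimertinib (SE 0.09, adjusted p = 0.000945) and 0.39 with cisplatin (SE 0.09, adjusted p = 0.00417), or 1.39-fold and 1.31-fold higher. KIF5B, the ubiquitous heavy chain of conventional kinesin, had 9.61, 9.60 and 9.52 with osimertinib, 9.62, 9.63 and 9.61 with cisplatin, and 9.36, 9.42 and 9.50 with vehicle. The treated arrays lay above the vehicle arrays by a small margin, and the difference was 0.14 with osimertinib (SE 0.05, adjusted p = 0.0342) and 0.19 with cisplatin (SE 0.05, adjusted p = 0.00832). KIF2A is a microtubule depolymerase of neurons that also acts at spindle poles. It was counted with the other kinesins although its relatives KIF2B and KIF2C were counted as mitotic, and counted as mitotic it would be the 1 mitotic kinesin that rose, with cisplatin. It had 8.12, 8.08 and 7.91 with osimertinib, 8.05, 8.24 and 8.21 with cisplatin, and 7.79, 7.86 and 7.95 with vehicle. It was higher with cisplatin, where the groups did not overlap, and the osimertinib arrays overlapped the vehicle arrays, with a difference of 0.17 with osimertinib (SE 0.08, adjusted p = 0.113) and 0.30 with cisplatin (SE 0.08, adjusted p = 0.00882).

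The other 11 tested kinesins of this group were called with neither drug, and their log2 differences ran from -0.41 (KIF24) to 0.18 (KIF3C) with osimertinib and from -0.39 (KIF24) to 0.24 (KIF26A) with cisplatin. Wholly below the vehicle arrays were 2 with osimertinib, KIF24 and KIF21B, and 1 with cisplatin, KIF24. Of all tested genes these were 19.5% and 19.8%. By limma the adjusted p of KIF24 was 0.0678 with osimertinib and 0.0832 with cisplatin. KIF1B, which carries mitochondria and vesicle precursors and had a mean level of 6.89, differed by -0.01 with osimertinib and -0.17 with cisplatin, and its dimmer second row (mean level 3.70) by -0.16 with osimertinib and 0.25 with cisplatin, so its rows disagreed in sign with cisplatin. Below the limit were 13 members of this group, at 2.06 to 4.12, among them the neuronal motors KIF1A (2.66), KIF5A (2.06) and KIF5C (3.27) and the antisense transcript KIF9-AS1 (2.69). The call of KIF5B with osimertinib was lost without vehicle replicate 1 or 2, cisplatin replicate 3, or osimertinib replicate 1 or 2 (adjusted p 0.0508 to 0.139), without the level limit (0.0593), with quantile normalization on top (0.172), without trend and robust fitting (0.161), on the 2 groups alone (0.0525), and with the replicate number as a block (0.0518). Its call with cisplatin was lost with quantile normalization on top (0.0561) and without trend and robust fitting (0.0729), and KIF2A was called with osimertinib when osimertinib replicate 3 was left out (0.0448) or quantile normalization was added (0.0222).

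At the centromere, genes of the constitutive centromere-associated network, the inner layer of the kinetochore, fell in 8 of 12 tested members with each drug. CENPI, a subunit that links CENPA chromatin to the outer kinetochore, fell most. Its log2 levels were 5.51, 4.67 and 5.27 with osimertinib, 4.75, 5.07 and 5.07 with cisplatin, and 6.67, 6.33 and 6.51 with vehicle. The lowest vehicle value, 6.33, stood well above the highest treated value, 5.51. The difference was -1.35 with osimertinib (SE 0.18, adjusted p = 8.61e-05) and -1.54 with cisplatin (SE 0.18, adjusted p = 3.09e-05), which is 2.55-fold and 2.91-fold lower. CENPP, of the subunit group around CENPO, had 5.53, 5.14 and 5.63 with osimertinib, 5.03, 5.13 and 5.19 with cisplatin, and 6.10, 6.12 and 6.28 with vehicle. All treated arrays lay below all vehicle arrays, and the difference was -0.73 with osimertinib (SE 0.12, adjusted p = 0.000569) and -1.05 with cisplatin (SE 0.12, adjusted p = 3.44e-05). CENPK, a partner of CENPI, had 4.6, 4.10 and 4.48 with osimertinib, 4.45, 4.6 and 4.37 with cisplatin, and 5.27, 5.26 and 5.11 with vehicle, and its difference was -0.82 with osimertinib (SE 0.13, adjusted p = 0.000431) and -0.74 with cisplatin (SE 0.13, adjusted p = 0.000952). CENPL, which binds CENPN, had 5.68, 5.26 and 5.28 with osimertinib, 5.09, 5.59 and 5.49 with cisplatin, and 6.16, 6.10 and 6.23 with vehicle, and its difference was -0.76 with osimertinib (SE 0.14, adjusted p = 0.00118) and -0.77 with cisplatin (SE 0.14, adjusted p = 0.00103). In CENPK and CENPL, too, the vehicle arrays lay above all treated arrays.

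CENPW, a histone-fold partner of CENPT, fell by 0.61 with osimertinib and by 0.60 with cisplatin on the log2 scale (adjusted p = 0.00236 and 0.00249). CENPO fell by 0.42 with osimertinib and 0.43 with cisplatin, and CENPM, a further partner of CENPI, by 0.41 with osimertinib and 0.39 with cisplatin. CENPN, which recognises CENPA nucleosomes, fell by 0.37 with each drug. CENPN was not called without vehicle replicate 2 (adjusted p = 0.0919 with osimertinib and 0.092 with cisplatin), without osimertinib replicate 3 (0.0771) or without cisplatin replicate 1 (0.0643), nor with median centring in the osimertinib comparison (0.0612). The 4 tested network genes called with neither drug were CENPC, the scaffold of the inner kinetochore (-0.33 with osimertinib and -0.29 with cisplatin), CENPU (-0.41 with osimertinib and -0.35 with cisplatin), CENPT (-0.21 with osimertinib and -0.23 with cisplatin) and CENPX, another histone-fold protein (-0.01 with osimertinib and 0.01 with cisplatin). CENPA itself had 5.08, 5.22 and 4.65 with osimertinib, 5.34, 5.24 and 5.28 with cisplatin, and 5.40, 5.24 and 5.31 with vehicle. Its osimertinib arrays lay below the vehicle arrays, its cisplatin arrays overlapped them, and the differences of -0.33 with osimertinib (SE 0.13, adjusted p = 0.0733) and -0.03 with cisplatin (SE 0.13, adjusted p = 0.893) were not called.

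Of the remaining genes with CENP symbols, CENPBD2P, a transcribed pseudogene that encodes no centromere protein, rose with osimertinib, and its difference was 0.39 with osimertinib (SE 0.12, adjusted p = 0.0286) and 0.26 with cisplatin (SE 0.12, adjusted p = 0.134). That call was lost without vehicle replicate 1 or 2 or any of osimertinib replicates 1, 2 and 3 (adjusted p 0.057 to 0.0867) and without the level limit (0.0558), and CENPBD2P was called higher with cisplatin when cisplatin replicate 1 was left out (0.0109) or quantile normalization was added (0.0399). CENPH (mean level 3.21), CENPQ (3.73) and CENPV (4.0) were below the limit. Tested without it, CENPV was called higher with osimertinib (0.63, adjusted p = 0.0465), and CENPH (-0.30 with osimertinib and -0.40 with cisplatin) and CENPQ (0.39 with osimertinib and 0.14 with cisplatin) were not called.

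**Figure D3:**
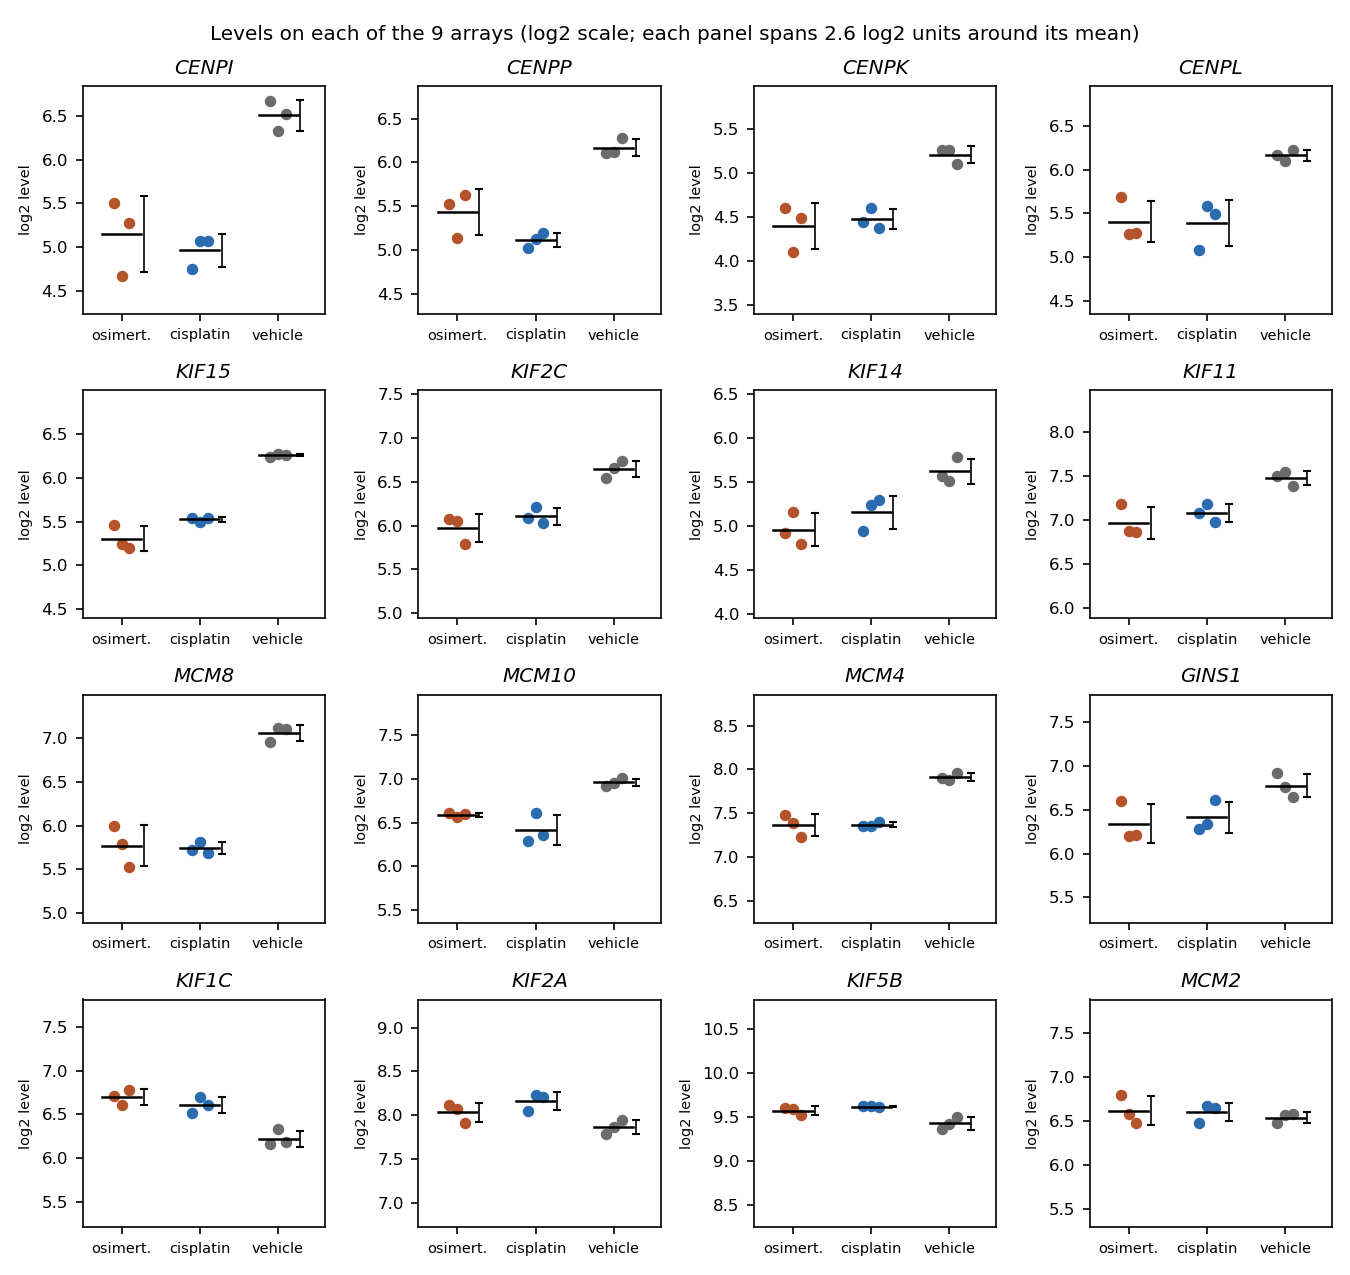
Each panel plots the log2 level of 1 gene on the 3 osimertinib, 3 cisplatin and 3 vehicle arrays (points), with the group mean (line) and the SD (bar at its right, n = 3). CENPI, KIF15 and MCM8 show no overlap between treated and vehicle arrays, KIF1C, KIF2A and KIF5B lie higher with cisplatin, and MCM2 overlaps throughout.

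The replication genes did not move as 1 block. Of the 6 subunits of the replicative helicase, MCM3 and MCM4 fell with both drugs, and MCM2, MCM5, MCM6 and MCM7 were called with neither. MCM4 had log2 levels of 7.48, 7.39 and 7.23 with osimertinib, 7.35, 7.35 and 7.40 with cisplatin, and 7.90, 7.88 and 7.96 with vehicle. The lowest vehicle value, 7.88, lay above the highest treated value, 7.48, and the difference was -0.55 with osimertinib (SE 0.07, adjusted p = 7.86e-05) and -0.54 with cisplatin (SE 0.07, adjusted p = 8.42e-05). MCM3 had 7.36, 7.36 and 7.30 with osimertinib, 7.09, 7.36 and 7.26 with cisplatin, and 7.51, 7.54 and 7.68 with vehicle. Its groups did not overlap either, and the difference was -0.24 with osimertinib (SE 0.08, adjusted p = 0.0353) and -0.34 with cisplatin (SE 0.08, adjusted p = 0.00496). With osimertinib the call of MCM3 was lost without vehicle replicate 2 or 3 or any of osimertinib replicates 1, 2 and 3 (adjusted p 0.0634 to 0.146), with median centring (0.168), without the level limit (0.0655) and without trend and robust fitting (0.064).

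MCM2 had 6.80, 6.58 and 6.47 with osimertinib, 6.48, 6.67 and 6.65 with cisplatin, and 6.47, 6.57 and 6.58 with vehicle, and treated and vehicle arrays overlapped. The 95% interval of its difference from vehicle ran from -0.13 to 0.28 with osimertinib and from -0.14 to 0.27 with cisplatin. MCM5 had 7.47, 7.51 and 7.60 with osimertinib, 7.20, 7.52 and 7.51 with cisplatin, and 7.28, 7.49 and 7.42 with vehicle, with intervals of -0.06 to 0.33 and -0.18 to 0.21. These intervals do not reach the -0.55 and -0.54 of MCM4, although the difference between subunits was not tested. MCM6 had 6.52, 6.53 and 6.53 with osimertinib, 6.47, 6.52 and 6.53 with cisplatin, and 6.41, 6.56 and 6.72 with vehicle, with differences of -0.04 with osimertinib and -0.06 with cisplatin. MCM7 had 6.26, 6.26 and 6.26 with osimertinib, 6.25, 6.26 and 6.18 with cisplatin, and 6.31, 6.56 and 6.16 with vehicle, with differences of -0.08 with osimertinib and -0.11 with cisplatin. The osimertinib arrays of MCM7 held 1 equal value and those of MCM6 nearly so, so the spread of that group is not known for MCM7.

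Of the MCM proteins outside that ring, MCM8 and MCM10 fell with both drugs and MCM9 with cisplatin. MCM8, which works with MCM9 in recombination repair, had 6.0, 5.79 and 5.53 with osimertinib, 5.73, 5.82 and 5.68 with cisplatin, and 6.96, 7.12 and 7.10 with vehicle. The highest treated value, 6.0, lay below the lowest vehicle value, 6.96, and the difference was -1.29 with osimertinib (SE 0.11, adjusted p = 2.64e-06) and -1.32 with cisplatin (SE 0.11, adjusted p = 2.26e-06), or 2.44-fold and 2.49-fold lower. MCM9 had 6.47, 6.02 and 6.37 with osimertinib, 5.87, 6.22 and 6.18 with cisplatin, and 6.59, 6.45 and 6.64 with vehicle. It fell with cisplatin and overlapped vehicle with osimertinib, with differences of -0.28 with osimertinib (SE 0.12, adjusted p = 0.115) and -0.47 with cisplatin (SE 0.12, adjusted p = 0.0111). MCM10, a scaffold that helps activate the helicase and shares no helicase fold with the ring subunits, had 6.61, 6.56 and 6.60 with osimertinib, 6.29, 6.61 and 6.36 with cisplatin, and 6.92, 6.95 and 7.0 with vehicle. No treated array reached the vehicle arrays, and the difference was -0.37 with osimertinib (SE 0.09, adjusted p = 0.00629) and -0.54 with cisplatin (SE 0.09, adjusted p = 0.000487). MCM3AP, whose symbol matches the rule but which encodes a nuclear mRNA export scaffold, had 6.46, 6.26 and 6.51 with osimertinib, 5.75, 6.39 and 6.31 with cisplatin, and 6.44, 6.62 and 6.47 with vehicle and was called with neither drug (-0.10 with osimertinib and -0.36 with cisplatin). Its antisense transcript MCM3AP-AS1 was below the limit, at 3.47.

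Of the GINS complex, which joins the MCM ring and CDC45 in the active helicase, GINS1 had 6.60, 6.21 and 6.21 with osimertinib, 6.28, 6.34 and 6.61 with cisplatin, and 6.92, 6.76 and 6.65 with vehicle. The treated arrays lay below the vehicle arrays, narrowly, and the difference was -0.44 with osimertinib (SE 0.12, adjusted p = 0.0154) and -0.36 with cisplatin (SE 0.12, adjusted p = 0.0377). Its call with cisplatin was lost without vehicle replicate 1 or 2 or cisplatin replicate 1 or 2 (adjusted p 0.081 to 0.141), without the level limit (0.0793), with quantile normalization on top (0.0548), with median centring (0.0679) and without trend and robust fitting (0.0561). Its call with osimertinib was lost without vehicle replicate 1 or osimertinib replicate 2 or 3 (0.0624 to 0.0702). GINS3 had 6.17, 6.14 and 5.99 with osimertinib, 6.12, 6.32 and 6.06 with cisplatin, and 6.14, 6.16 and 6.24 with vehicle. GINS4 had 4.54, 4.32 and 4.19 with osimertinib, 4.41, 4.34 and 4.48 with cisplatin, and 4.27, 4.56 and 4.77 with vehicle. Neither was called (-0.08 with osimertinib and -0.01 with cisplatin for GINS3 and -0.18 with osimertinib and -0.12 with cisplatin for GINS4), and a second, dimmer row of GINS4 (mean level 2.96) gave -0.35 with osimertinib and -0.09 with cisplatin. GINS2, at a mean level of 4.23, lay just under the limit.

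**Figure D4:**
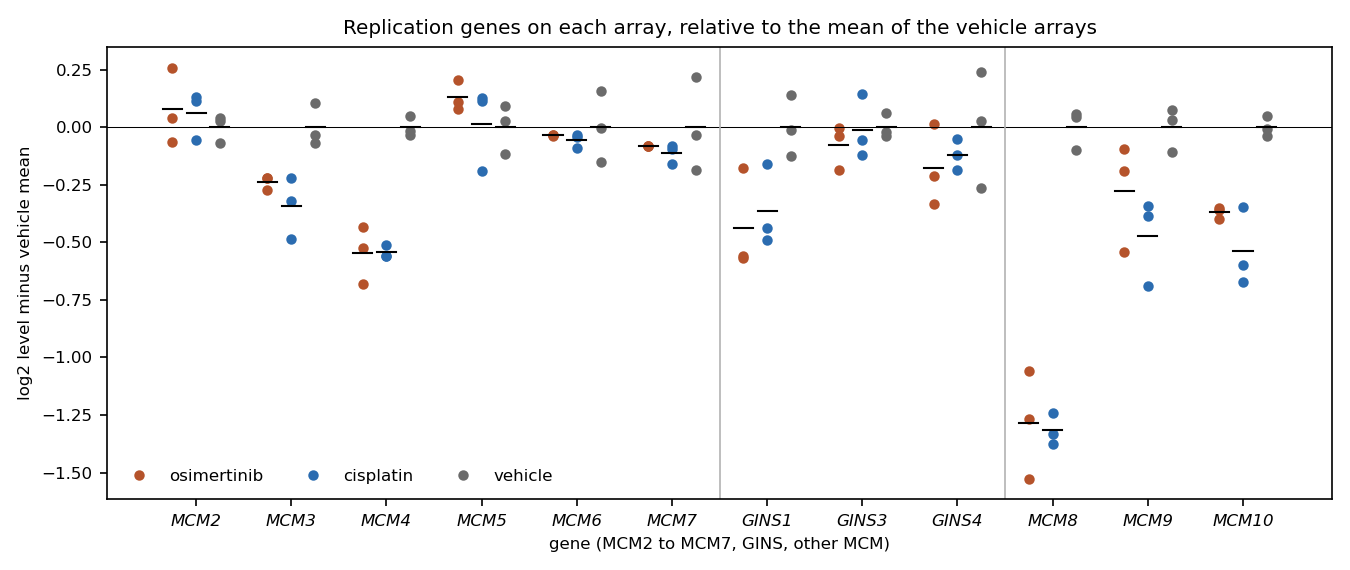
Points give the log2 level of MCM2 to MCM10, GINS1, GINS3 and GINS4 on every array minus the mean of the gene's 3 vehicle arrays. Osimertinib, cisplatin and vehicle stand from left to right within a gene, with short lines for the group means. MCM8 lies lowest, at -1.29 with osimertinib and -1.32 with cisplatin on average, and MCM2, MCM5, MCM6 and MCM7 lie around 0.

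The drugs were also compared with each other, osimertinib minus cisplatin. By limma 0 of 53 tested members were called, against 0.981% of all tested genes called lower, 0.766% called higher and 1.75% in either direction. The osimertinib arrays lay wholly below the cisplatin arrays for 5 members, KIF15, KIF20A, KIF21A, KIF5B and CENPA (6.88% of all tested genes), and wholly above for 0 (7.44%). At an unadjusted p under 0.05, 4 members were lower with osimertinib and 1 was higher. These were KIF20A (-0.40), KIF26A (-0.37), CENPA (-0.30), KIF15 (-0.22) and CENPP (0.32), with adjusted p of 0.288 to 0.385. Of 12 mitotic kinesins 10 had a lower mean with osimertinib than with cisplatin, and so had 7 of 14 CENP genes, 10 of 14 other kinesins, 1 of 10 genes with MCM symbols and 3 of 3 GINS genes. The same count was 31 of 53 for all tested members and 3490 of 7442 for all tested genes. The 95% intervals of the difference lay within 0.5 log2 units either side of 0 for 46 of the 53 members. The widest bounds were -0.74 for KIF20A and 0.59 for CENPP, so a difference between the drugs of that size lies within their intervals.

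Partner genes of the members, from lists of the same pathways, were counted in the same way. The lists held 139 genes, of which 97 were named and 89 tested. The outer kinetochore list held 13, of which 6 were tested. Of 89 tested, 31 fell (34.8%) and 2 rose (2.25%) with osimertinib, against 13.7% lower and 16.9% higher among all tested genes. With cisplatin 34 fell (38.2%) and 1 rose (1.12%), against 14.5% lower and 16.5% higher. The median difference was -0.15 for each drug, and that of all tested genes 0.04 with osimertinib and 0.03 with cisplatin. Log2 differences from vehicle are given in brackets. In the outer kinetochore 3 of 6 fell with each drug: KNL1, the checkpoint scaffold (-0.86 with osimertinib and -0.71 with cisplatin), and the microtubule-binding SKA1 (-0.65 with osimertinib and -0.59 with cisplatin) and SKA3 (-0.53 with osimertinib and -0.57 with cisplatin). Of the loaders of CENPA only HJURP was tested, and it fell with osimertinib (-0.37 with osimertinib and -0.11 with cisplatin). Of 10 spindle checkpoint genes 5 fell with osimertinib and 4 with cisplatin: BUB1 (-1.11 with osimertinib and -0.87 with cisplatin), KNTC1 (-0.79 with osimertinib and -0.93 with cisplatin), BUB1B (-0.67 with osimertinib and -0.45 with cisplatin) and CDC20 (-0.34 with osimertinib and -0.54 with cisplatin) with both, and MAD2L1 (-0.36 with osimertinib and -0.09 with cisplatin) with osimertinib. Among 5 genes of the chromosomal passenger complex and shugoshin, CDCA8 (-0.58 with osimertinib and -0.42 with cisplatin) and SGO1 (-0.81 with osimertinib and -0.69 with cisplatin) fell with both drugs and BIRC5 (-0.38 with osimertinib and -0.20 with cisplatin) with osimertinib. Of 10 spindle and midzone genes 5 fell with each drug: SPAG5 (-0.80 with osimertinib and -0.73 with cisplatin), PRC1, the microtubule bundler of the midzone (-0.68 with osimertinib and -0.48 with cisplatin), the minus-end kinesin KIFC1 (-0.55 with osimertinib and -0.50 with cisplatin) and CKAP5 (-0.39 with osimertinib and -0.35 with cisplatin) with both, HMMR (-0.49 with osimertinib and -0.22 with cisplatin) with osimertinib and ECT2 (-0.23 with osimertinib and -0.28 with cisplatin) with cisplatin.

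The condensin genes of the NCAP families were not named, but the SMC subunits they bind were. SMC4, a core subunit of both condensins, fell (-0.38 with osimertinib and -0.35 with cisplatin), and its partner SMC2 was not called (-0.12 with osimertinib and -0.15 with cisplatin). In that list of 14 tested condensin and cohesin genes, the cohesin acetyltransferase ESCO2 (-0.80 with osimertinib and -0.74 with cisplatin), SMC1A (-0.44 with osimertinib and -0.44 with cisplatin) and separase, ESPL1 (-0.40 with osimertinib and -0.38 with cisplatin), fell with both drugs and the cohesin loader NIPBL (-0.14 with osimertinib and -0.20 with cisplatin) with cisplatin. Around origin licensing and firing 4 of 12 fell (33.3%) and 1 rose (8.33%) with each drug. Of all tested genes 13.7% fell and 16.9% rose with osimertinib, and 14.5% fell and 16.5% rose with cisplatin. TICRR, which is needed to fire origins (-1.04 with osimertinib and -1.0 with cisplatin), the kinase CDC7 (-0.79 with osimertinib and -0.72 with cisplatin) and TOPBP1 (-0.35 with osimertinib and -0.38 with cisplatin) fell with both, CDC45 (-0.44 with osimertinib and -0.21 with cisplatin) with osimertinib and the MCM loader CDC6 (-0.31 with osimertinib and -0.50 with cisplatin) with cisplatin. DBF4, the activating subunit of CDC7, rose with both (0.40 with osimertinib and 0.38 with cisplatin). Of 24 listed replication fork genes only 6 were named and tested, so most of that list was not seen. Of these 6 CLSPN fell (-0.45 with osimertinib and -0.53 with cisplatin), and PCNA (0.08 with osimertinib and 0.03 with cisplatin) and FEN1 were not called. That is 16.7% lower with each drug, near the 13.7% and 14.5% of all tested genes.

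Of 16 transcription factors of the E2F and late cell cycle group, 4 fell and 1 rose with osimertinib and 8 fell with cisplatin. With osimertinib that is 25% lower and 6.25% higher, against 13.7% and 16.9% of all tested genes. With cisplatin 50% were lower and 0 higher, against 14.5% and 16.5%. E2F8 (-0.93 with osimertinib and -0.64 with cisplatin), E2F7 (-0.85 with osimertinib and -0.58 with cisplatin), MYBL2 (-0.50 with osimertinib and -0.39 with cisplatin) and RB1 (-0.31 with osimertinib and -0.29 with cisplatin) fell with both, and LIN37 (0.48 with osimertinib and 0.27 with cisplatin) rose with osimertinib. Among the 8 that fell with cisplatin, RBL1 (-0.37 with osimertinib and -0.52 with cisplatin) was next in p, and E2F1, E2F3 and FOXM1 were also called. Among 9 tested motor adaptors and further kinesins, the kinesin light chain KLC1 fell with both (-0.28 with osimertinib and -0.35 with cisplatin), KIFC3 fell with cisplatin (-0.13 with osimertinib and -0.31 with cisplatin), and 0 rose. In this list 11.1% fell with osimertinib and 22.2% with cisplatin, against 13.7% and 14.5% of all tested genes.

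Of these partner genes, some calls were lost when an array was left out, with adjusted p given in brackets. With osimertinib, calls were lost for SKA1 without osimertinib replicate 2 or 3 or vehicle replicate 3 (0.053 to 0.0676), CDC20 without osimertinib replicate 3 (0.0583) and MAD2L1 without osimertinib replicate 2 or 3 or cisplatin replicate 3 or vehicle replicate 1 or 2 or 3 (0.0571 to 0.167). Calls were also lost for BIRC5 without osimertinib replicate 2 or 3 or vehicle replicate 2 or 3 (0.0874 to 0.148), ESPL1 without osimertinib replicate 1 or 2 or 3 or vehicle replicate 1 or 3 (0.0554 to 0.148) and CDC45 without osimertinib replicate 3 or cisplatin replicate 1 or 3 or vehicle replicate 2 or 3 (0.053 to 0.179). Calls were also lost for CLSPN without osimertinib replicate 2 or 3 or vehicle replicate 2 or 3 (0.0509 to 0.16), KLC1 without osimertinib replicate 1 or vehicle replicate 2 or 3 (0.0607 to 0.0764) and LIN37 without osimertinib replicate 1 or 2 or vehicle replicate 2 (0.0536 to 0.066). With cisplatin, calls were lost for SKA1 without cisplatin replicate 1 or 3 or vehicle replicate 3 (0.0639 to 0.109), ECT2 without cisplatin replicate 1 or 2 or vehicle replicate 1 or 2 or 3 (0.053 to 0.105) and ESPL1 without osimertinib replicate 1 or 2 or 3 or cisplatin replicate 1 or 3 or vehicle replicate 1 or 3 (0.0503 to 0.188). The same held for NIPBL without cisplatin replicate 1 or vehicle replicate 3 (0.0806 to 0.123), CDC6 without vehicle replicate 1 (0.0627) and CLSPN without cisplatin replicate 1 or vehicle replicate 3 (0.0682 to 0.083). The same held for KIFC3 without osimertinib replicate 1 or 2 or 3 or cisplatin replicate 1 or 2 or 3 or vehicle replicate 1 or 3 (0.051 to 0.176), E2F1 without cisplatin replicate 1 or 3 or vehicle replicate 1 (0.0629 to 0.12) and E2F3 without osimertinib replicate 1 or 2 or 3 or cisplatin replicate 1 or 3 or vehicle replicate 1 or 2 (0.0544 to 0.166). The same held for FOXM1 without osimertinib replicate 1 or 2 or 3 or cisplatin replicate 1 or 3 or vehicle replicate 1 or 2 or 3 (0.0531 to 0.148) and RBL1 without cisplatin replicate 1 or vehicle replicate 3 (0.0628 to 0.078). Under the other settings, calls with osimertinib were lost for MAD2L1, BIRC5, ESPL1, CDC45 and CLSPN without the level limit, for MAD2L1, BIRC5, ESPL1, CDC45 and CLSPN with quantile normalization, for CDC20, MAD2L1, BIRC5, ESPL1, CDC45, CLSPN and KLC1 with median centring. They were also lost for MAD2L1 and BIRC5 with the replicate block, for BIRC5 and CDC45 on the 2 groups alone, for CDC45 without trend and robust fitting. Their adjusted p was then 0.0501 to 0.109. Under the other settings, calls with cisplatin were lost for SKA1, ECT2, ESPL1, NIPBL, KIFC3, E2F3 and FOXM1 without the level limit, for ECT2, ESPL1, KIFC3, E2F1, E2F3 and FOXM1 with quantile normalization, for ECT2, ESPL1, NIPBL, KIFC3, E2F1, E2F3 and FOXM1 with median centring. They were also lost for ECT2 and FOXM1 with the replicate block, for ESPL1, NIPBL, KIFC3, E2F3 and FOXM1 on the 2 groups alone, for NIPBL and E2F3 without trend and robust fitting. Their adjusted p was then 0.0507 to 0.117.

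**Figure D5:**
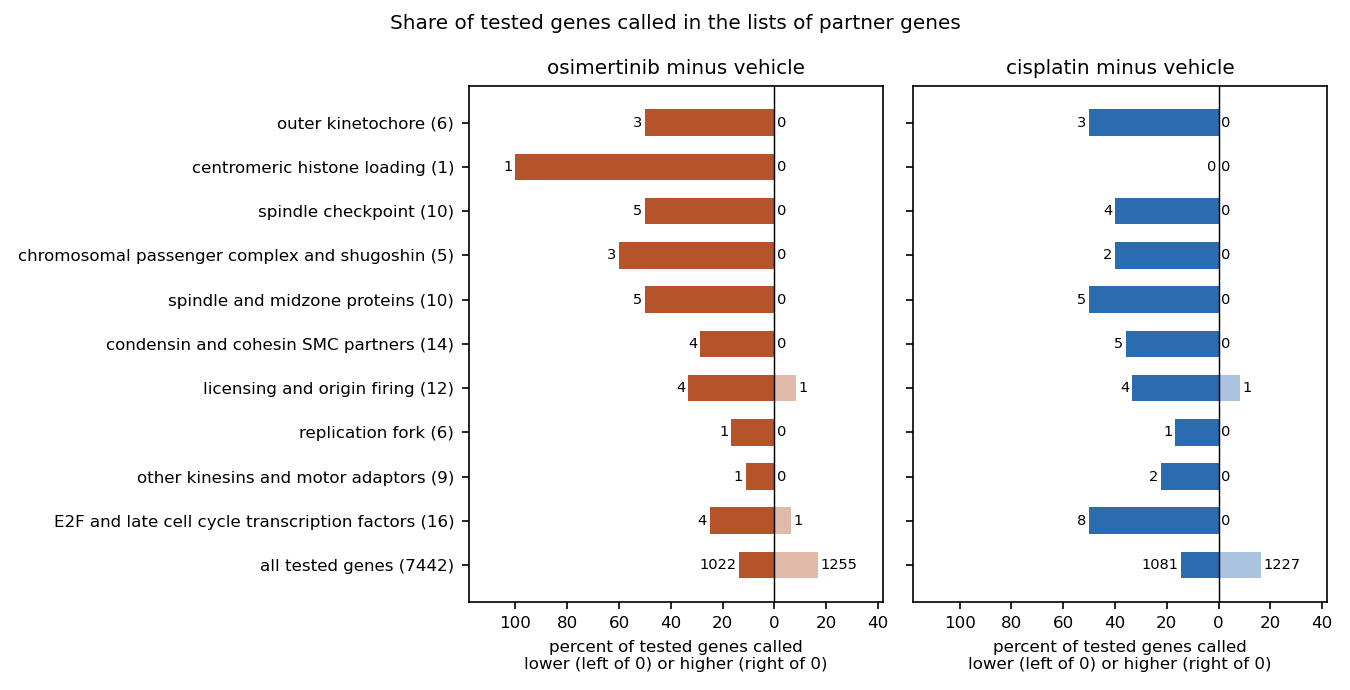
Horizontal bars give the percent of tested genes in each list of partner genes called lower (left of 0) and higher (right of 0) with osimertinib (left panel) and cisplatin (right panel) against vehicle, with the number called at each bar and the number tested in brackets. Bars to the left prevail in the kinetochore, spindle and checkpoint lists, for example 5 of 10 spindle and midzone genes with each drug, against 13.7% and 14.5% of all tested genes.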

How the data were processed

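Per the labels, total RNA from each culture was extracted with Trizol, labelled with biotin and hybridised alone to an array, and a service provider processed the scans and summarized them per gene. The submitters' processing notes list Affymetrix Power Tools and give no version of it. For background correction, summarization method, log base and hybridisation batch, the sources used here say nothing. Treating the deposited scale as log2 rests on its range, 0.65 to 13.17. Some called members, among them KIF11, KIF20B, KIF23, CENPK, CENPW and MCM3, held exactly the same value on more than 1 treated array. Called partner genes also held such ties, among them BUB1B, CDCA8 and CKAP5 on more than 1 cisplatin array and CDC45 on more than 1 vehicle array. The origin of these ties was not tested, and the spread of such genes may be understated. Array medians over all rows lay between 3.29 and 3.37, and differences are relative to most other transcripts. The median difference of all tested genes was 0.04 with osimertinib and 0.03 with cisplatin. It was 0.11 and 0.11 with quantile normalization on top and 0.10 and 0.07 with median centring. The zero point of the tested genes therefore depends on the normalization.

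The platform annotation, which can be old, names 16098 of 53617 rows with 1 gene each. All their Entrez identifiers matched the RefSeq gene table (GRCh38.p14). limma 3.58.1 in R 4.3.3 fitted 1 model with 3 group means over 9 arrays, with trend and robust empirical Bayes, and tested 3 contrasts, two-sided. The fit was tested on simulated data. Standard errors and intervals are the moderated ones. Members, gene lists and tests were chosen with earlier results of these data known. Named were all called members, per-array values being given for the 4 largest differences per family and all tested MCM and GINS genes, and partner genes by the smallest p or where 5 or fewer were called. Replicate numbers were not used as pairs: deviations from group means of same-numbered arrays correlated at -0.23 to 0.13, and of differently numbered arrays at -0.12 to 0.20. Such values cannot show whether the cultures were run as pairs. Alternatives were no level limit, quantile normalization on top, median centring, no trend and robust fitting, the mean over a gene's rows, a replicate block, 2-group fits, and leaving out each array.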

Additional observations from a re-analysis of the deposited data

How the results depend on the processing

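The falls of the members kept close to their counts. Leaving out each array in turn, 16 to 22 tested members fell with osimertinib and 16 to 20 with cisplatin, and the other alternatives gave 17 to 22 and 18 to 20. On leaving out an array, 10.8% to 15.2% of all tested genes fell with osimertinib and 11.4% to 14.3% with cisplatin. Under the other alternatives these shares were 6.99% to 14.2% and 7.28% to 14.5%. Without osimertinib replicate 3, where 16 members fell with osimertinib, the share of all tested genes was 11.3%. The few rises were less stable: on leaving out an array 1 to 3 members rose with osimertinib and 3 to 5 with cisplatin, and otherwise 2 to 3 with each. The share of all tested genes that rose on leaving out an array was 12.4% to 18.3% with osimertinib and 11.9% to 18.2% with cisplatin. Under the other alternatives this share was 7.77% to 26.9% with osimertinib and 7.41% to 26.4% with cisplatin. With osimertinib 1 member rose without vehicle replicate 1 or 2 or osimertinib replicate 1 or 2. With cisplatin 5 rose without cisplatin replicate 1, where 18.2% of all tested genes rose. The cause was not tested. No member was called between the drugs under any of the alternatives, by limma, where 0.289% to 1.64% of all tested genes were called lower and 0.222% to 1.29% higher. Of 48 calls of members against vehicle, 34 held under all 16 alternatives, and none changed sign.

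Replicate numbers shared by the groups left no visible pairing in the values, and whether the cultures were run as pairs is not known. With the replicate block, 21 members fell and 2 rose with osimertinib, 20 fell and 3 rose with cisplatin, and 0 were called between the drugs. Of all tested genes 13% then fell and 15.8% rose with osimertinib, and 13.8% fell and 15.2% rose with cisplatin. Between the drugs 0.847% were called lower and 0.605% higher. KIF22 and KIF5B with osimertinib were the member calls lost under it. Quantile normalization on top moved the share of all tested genes called with osimertinib to 26.9% higher and 12.5% lower, against 16.9% and 13.7%, and with cisplatin to 26.4% and 13.1%, against 16.5% and 14.5%. Alternatives for the partner genes were added after seeing the data. The brightness of a probe set above background was not measured here, so small differences of dim genes are the least certain.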
